A study of Homo sapiens with 12 samples.

Results

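The genes described here, in IMR90 human lung fibroblasts, are the 69 replication-dependent histone genes. These clustered genes supply new histones when DNA is copied. They were picked by a rule on names, with earlier results of these data known. The rule took every gene whose current symbol is H1-1 to H1-5 or begins with H2AC, H2BC, H3C or H4C followed by a number. Among 61541 gene identifiers, 82 symbols matched, and 13 pseudogenes were left out. The members comprise 5 linker histone H1 genes, 17 H2A, 19 H2B, 13 H3 and 15 H4 genes. They lie on chromosome 6 (54 genes), chromosome 1 (13 genes), chromosome 12 (1 gene) and chromosome 21 (1 gene).

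All cells were wild type, and all received doxorubicin, an anthracycline that damages DNA and is used to induce senescence. They grew on conventional plastic or on a soft substrate of 2 kPa, called a gel below, and were given 100 or 250 nM of the drug for 24 h, then kept at least 8 days longer. This gave 4 groups with 3 libraries each, 12 in all, made from polyadenylated RNA. By its title, the series is concerned with matrix stiffness and the secretory state that doxorubicin-induced senescence brings to lung fibroblasts. No untreated, proliferating or quiescent library was among the 12, so the comparisons set doses and substrates against each other, not drug against vehicle. The titles state doses in nM where the treatment protocol has the same figures in µM, and the titles say hydrogel where the growth protocol says PDMS coating. The wording of the titles was followed.

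Library totals ran from 5887056 to 7351916 expected counts at 100 nM and from 2229070 to 2730309 at 250 nM. File names mention molecular identifiers for the 250 nM libraries only, so the dose and the library set cannot be told apart in any dose comparison. Replicate 1 of plastic at 100 nM and replicate 1 of gel at 250 nM stood apart, with 14.3% and 13.2% of counts on ribosomal DNA loci against 24.2% to 30.7% in the other libraries. The labels do not say whether replicates were separate cultures, so p-values measure only the spread between these samples. Fibroblast markers summed to between 9127 and 14560 CPM in each library, CPM being counts scaled to a common effective library size. The 8 leukocyte markers summed to between 0 and 3.31 CPM, with TYROBP and CD3E among those at 0 in every library. In bulk RNA, fewer cells of one kind and less RNA per cell cannot be told apart.

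Replication-dependent histone genes are transcribed mainly in S phase, when NPAT and its partners switch on the clusters. Their messages usually end in a stem-loop instead of a poly(A) tail. SLBP binds this stem-loop, and the U7 small nuclear ribonucleoprotein guides the cut just behind it. Some of these genes also make polyadenylated messages from a downstream site, a form known from cells that have left the cell cycle. A library of polyadenylated RNA samples the tailed messages by design, and the stem-loop-ended messages only as far as they are carried along.

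The stem-loop is shown for the members on which the results turn, to let a reader compare it between genes called higher and genes not called. Capitals mark the 6-base arms of the stem, the lower-case bases between them are the loop, and 5 flanking bases stand on each side. Sequences are from GENCODE 29 transcripts, read 5′ to 3′.
H2AC6: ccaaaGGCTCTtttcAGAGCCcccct
H2BC21: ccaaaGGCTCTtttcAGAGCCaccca
H2BC5: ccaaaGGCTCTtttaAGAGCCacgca
H2AC18 and H2AC19: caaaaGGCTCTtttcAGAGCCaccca
H4C8: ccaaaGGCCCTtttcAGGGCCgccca
H4C15: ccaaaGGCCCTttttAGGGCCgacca
The H2A and H2B genes shown share 1 stem, and the H4 genes shown share another. In all, 31 of 69 members had an annotated transcript that holds the stem-loop, against 73 of 83064 protein-coding transcripts (0.0879%). The position of the stem-loop set the annotated models apart. In H2BC21 the transcript runs on for 1729 bases after it, in H2AC6 for up to 1128, in H4C8 for up to 1655 and in H4C15 for up to 1314. In H2AC18 and H2AC19 it runs on for only 35 bases. The annotated transcripts of H4C3, H1-2, H1-3, H1-4 and H2AC14 hold no match, so none is printed for these genes. For H1-2, H1-3, H1-4 and H2AC14 the transcript searched has 642, 666, 754 and 387 bases. The models that counted their reads have 731, 776, 787 and 476 bases. For H4C3 the figures are 435 and 405. A missing match therefore does not show that a gene lacks the stem-loop, and the 31 members depend on how far the annotated transcripts run.

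A few members carried nearly all of the histone signal. Compared per length, as TPM, the deposited level scaled for transcript length and library total, H4C3 alone made up 67.3% of the members' summed mean TPM. Its share of the summed TPM was 62.3% to 83.7% in the libraries at 100 nM, 67.9% in replicate 1 of plastic at 250 nM and 13.3% to 25.2% in the other 5. H4 genes as a family made up 69.8%, H2A genes 16.8%, H1 genes 7.93%, H2B genes 5.15% and H3 genes 0.32%. By the mean TPM of the 12 libraries, H4C3 (532) was followed by H1-2 (49.1), H2AC6 (37.6), H2AC19 (31.7), H2AC18 (24.1), H2BC5 (15.4) and H2AC14 (13.2), and no other member reached 10. Across the 12 libraries the levels of H1-2 and H2AC6 overlapped, so their order is not firm. H2AC18 and H2AC19 are near-identical copies that cannot be ranked apart, and their sum lay above H4C3 in 3 of the 6 libraries at 250 nM, for example at 116 against 66.7 TPM in replicate 2 of gel. In the other direction, 16 members had 0 counts in all 12 libraries, among them 6 H2B and 5 H3 genes, and 11 members were above 0 in all 12. The filter on low counts left 21 members for testing, and 32 of the 48 untested ones had at least some reads. A member could pass that filter through the group where it is high.

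The higher dose went with much less H4C3, the H4 gene that dominated the signal. On plastic at 100 nM, replicates 1 to 3 had 239, 487 and 512 CPM. On gel at 100 nM they had 313, 201 and 143 CPM. At 250 nM they had 84.4, 24.4 and 19.6 CPM on plastic and 12.6, 25.2 and 14.7 CPM on gel. Every 100 nM library lay above every 250 nM library on the same substrate, and the lowest 100 nM value exceeded the highest 250 nM value across substrates too. The fitted level was 9.61-fold lower on plastic (log2 change −3.27, SE 0.52, edgeR adjusted p = 0.00509) and 12.6-fold lower on gel (log2 change −3.66, SE 0.55, edgeR adjusted p = 0.00384). H4C3 shared no stretch of 75 bases with another member, and its counts were whole in every library. Its fall on both substrates was called under all 25 settings tried.

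**Figure D1:**
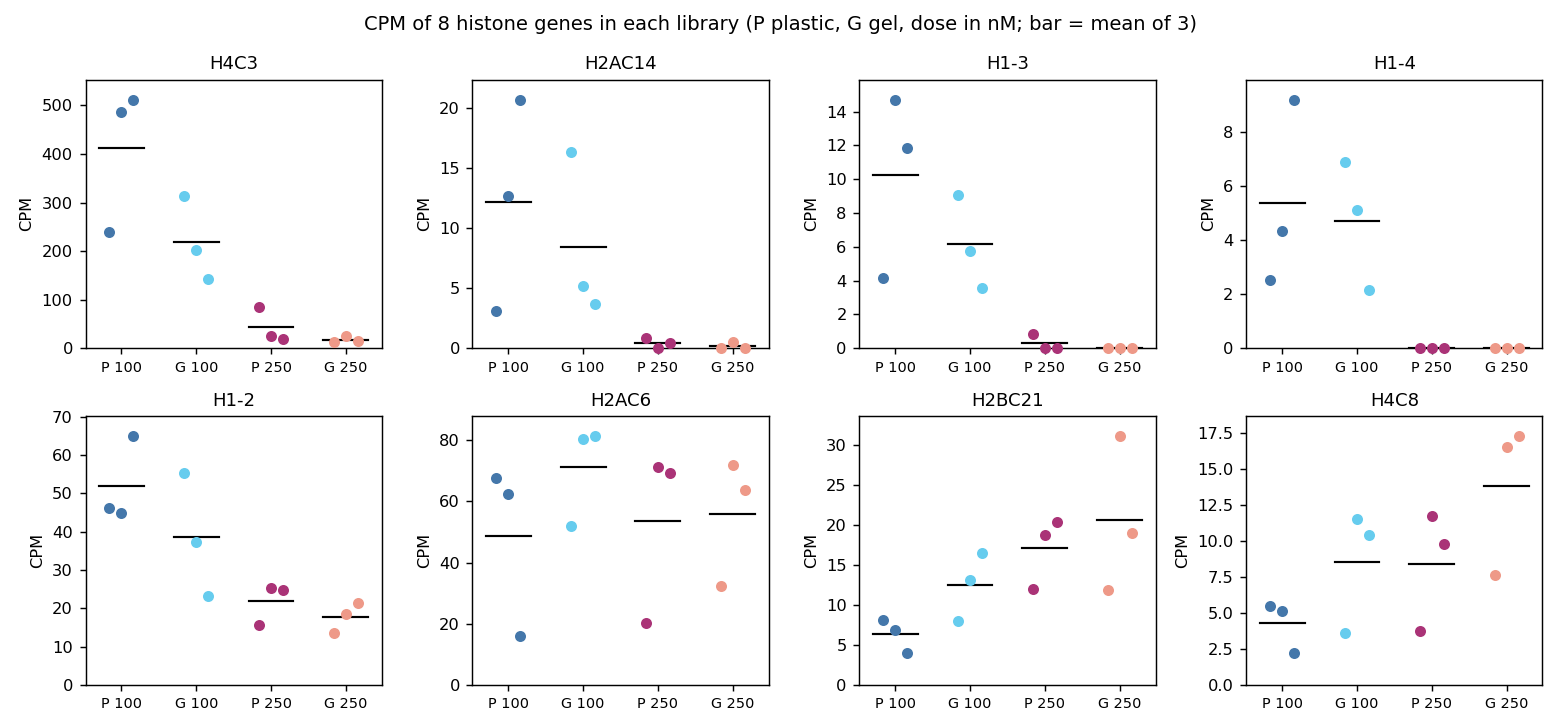
CPM of 8 histone genes in each library. Each point is 1 library, the 4 columns are plastic and gel at 100 nM and plastic and gel at 250 nM, and the bar is the mean of 3. H2AC14, H1-3 and H1-4 lie at or close to 0 at 250 nM. H4C3 lies between 12.6 and 84.4 CPM at 250 nM against 143 to 512 CPM at 100 nM, H1-2 is lower at 250 nM but above 13 CPM, and H2AC6, H2BC21 and H4C8 were not called lower.

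Across the 21 tested members, 7 were called on plastic (5 lower and 2 higher at 250 nM) where 8.52% of all 12329 tested genes were called, 4.48% lower and 4.04% higher. On gel 8 were called (7 lower and 1 higher) against 13.8% of all tested genes, 6.9% lower and 6.91% higher. The median log2 change of the tested members was −0.65 on plastic and −0.21 on gel, beside −0.03 and −0.02 over all tested genes. Groups did not overlap for 10 members on plastic and 8 on gel, and for 35.8% of all tested genes in either comparison. By family, 3 of 4 tested H1 genes were called lower on plastic and 4 of 4 on gel. Of 7 tested H2A genes 1 was called lower on plastic, and 2 lower and 1 higher on gel. Of 5 tested H4 genes 1 was called lower on each substrate and 1 higher on plastic. Of 4 tested H2B genes 0 were called lower by edgeR and 1 higher on plastic, and the 1 tested H3 gene was not called. No difference between families was tested. Of the members called lower, H1-3, H1-4, H1-5, H2AC14 and H2AC20 had 158 to 390 counts at 100 nM and 0 to 4 at 250 nM. These genes passed the filter through the 100 nM groups, where they were high, so the counts by family are a description only. The 5 pericyte and muscle markers summed to 53.7 to 83.7 CPM at 100 nM and 96.4 to 140 CPM at 250 nM, without overlap. The 7 epithelial markers, SFTPC and KRT5 of them at 0 in every library, summed to 42.5 to 115 and 90.6 to 221 CPM. The 6 endothelial markers, with CLDN5 at 0, summed to 7.29 to 31.0 and 9.69 to 38.1 CPM. Of the 8 fibroblast markers, 2 were called lower and 1 higher on plastic and 1 lower on gel. The part of other cells in the histone changes was not tested. The 2 dose comparisons share no library, but both came from 1 fit of all 12 libraries. The filter, the scaling and the estimate of the spread are shared, so their p-values are not independent. The counts rest on single libraries, since without replicate 2 or without replicate 3 of plastic at 250 nM 1 member was called on plastic (H4C3 both times), and without replicate 2 or 3 of plastic at 100 nM 4 were. On gel, dropping gel replicate 1 of the 100 nM group left 4 called members, and dropping gel replicate 2 of that group, gel replicate 1 of the 250 nM group, or plastic replicate 2 or 3 of the 250 nM group left 5. Without the 2 libraries that stood apart, 8 members were called on plastic and 7 on gel.

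**Figure D2:**
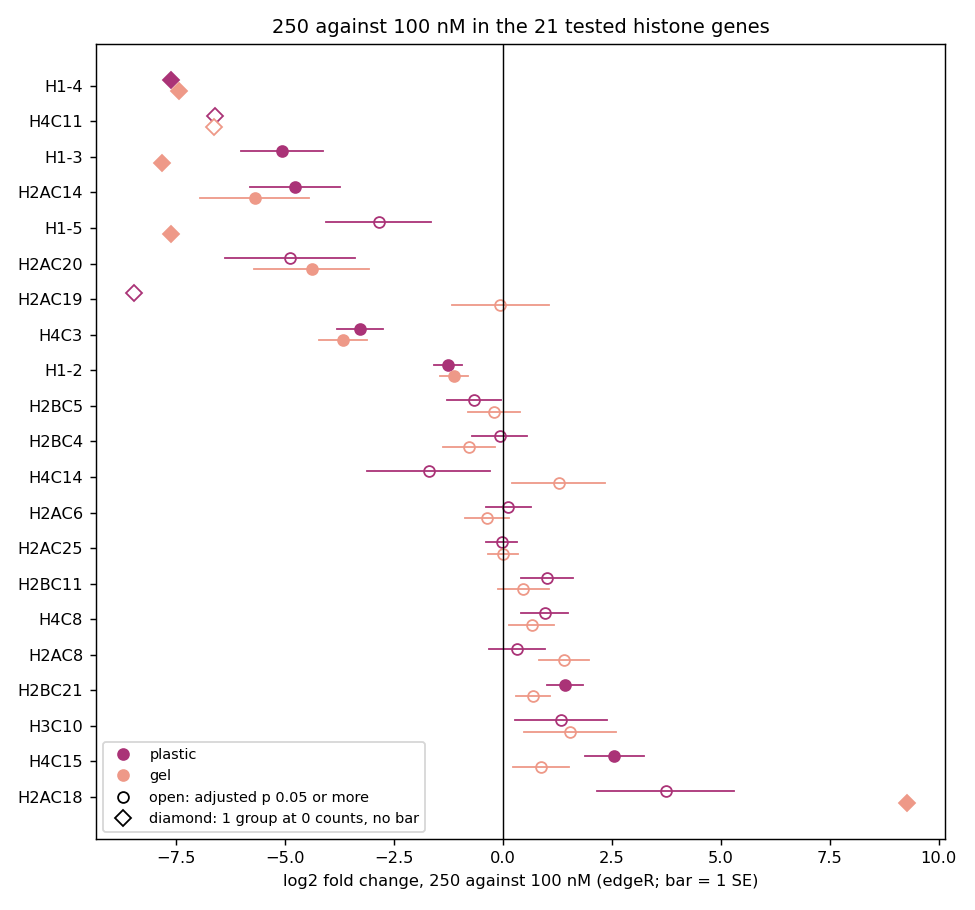
Fitted log2 change from 100 to 250 nM for the 21 tested members, on plastic and on gel, with bars of 1 SE. Filled symbols were called by edgeR, and diamonds mark genes with 1 group at 0 counts, whose fitted value depends on the prior count and is no bound. H1 genes, H4C3, H2AC14, H2AC20 and H4C11 lie on the left on both substrates, H2AC19 on plastic only, and H2BC21, H4C15 and H2AC18 on the right.

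Of the 4 tested linker histone genes, 3 were called lower on plastic and all 4 on gel. H1-2, whose message is known to occur with a poly(A) tail, had 46.2, 44.9 and 64.9 CPM on plastic and 55.3, 37.4 and 23.2 CPM on gel at 100 nM. At 250 nM it had 15.7, 25.3 and 24.7 CPM on plastic and 13.5, 18.5 and 21.5 CPM on gel. The doses did not overlap on either substrate, although gel replicate 3 at 100 nM lay close to the highest gel library at 250 nM. H1-2 fell 2.37-fold on plastic (log2 change −1.25, SE 0.32, edgeR adjusted p = 0.0314) and 2.17-fold on gel (log2 change −1.12, SE 0.32, edgeR adjusted p = 0.0361). The plastic call was lost without any 1 of the 6 plastic libraries (edgeR adjusted p from 0.05002 to 0.101). The gel call was lost without gel replicate 1 or 2 at either dose or without replicate 2 or 3 of plastic at 250 nM (edgeR adjusted p from 0.052 to 0.147). It was also lost with limma-voom (adjusted p = 0.134), with only the groups compared (edgeR adjusted p = 0.1), with the replicate block (0.0521) and without the 2 libraries that stood apart (0.0878), and was made in 15 of 25 settings.

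H1-3 and H1-4 were close to absent at the higher dose. H1-3 had 4.14, 14.7 and 11.9 CPM on plastic and 9.07, 5.77 and 3.56 CPM on gel at 100 nM, and at 250 nM it had 0.83 CPM in replicate 1 of plastic and 0 in the other 5 libraries. It was 33.2-fold lower on plastic (log2 change −5.05, SE 0.94, edgeR adjusted p = 0.0112). On gel, where 117 counts at 100 nM stood against 0, it was at least 14.7-fold lower, taking 3 counts over the group as the limit that 0 allows (edgeR adjusted p = 0.00815). Such limits cover counting error only. H1-4 had 2.54, 4.34 and 9.18 CPM on plastic and 6.89, 5.09 and 2.14 CPM on gel at 100 nM, and 0 in all 6 libraries at 250 nM. It was at least 12.2-fold lower on plastic (edgeR adjusted p = 0.017) and at least 11.3-fold lower on gel (edgeR adjusted p = 0.0149). Without replicate 2 or 3 of plastic at 250 nM, the plastic calls of both genes were lost (edgeR adjusted p from 0.0678 to 0.0789).

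H1-5 was called on gel alone, which does not show that the substrates differ. On plastic it had 0.67, 3.56 and 5.38 CPM at 100 nM and 0.83, 0 and 0.39 CPM at 250 nM, which overlap. On gel it had 11.4, 2.75 and 1.85 CPM at 100 nM and 0 in all 3 libraries at 250 nM, at least 12.1-fold lower (edgeR adjusted p = 0.0228, and 0.0523 without gel replicate 1 at 250 nM). On plastic the edgeR adjusted p was 0.16. The difference of the dose effects between substrates was called for none of the 21 members, and at unadjusted p under 0.05 for 1 (edgeR, with none called by DESeq2 or limma). H1-1, too low to be tested, had 54 counts over the 6 libraries at 100 nM and none at 250 nM.

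For the 3 H1 genes called lower on both substrates, the 100 bases before the RefSeq start (GRCh38.p14) are printed 5′ to 3′ on the gene's strand, and capitals mark the letters CCAAT and TATAAA. H1-2 lies at chr6:26056471-26056570 on the minus strand, H1-3 at chr6:26234988-26235087 on the minus strand and H1-4 at chr6:26156229-26156328 on the plus strand.
H1-2: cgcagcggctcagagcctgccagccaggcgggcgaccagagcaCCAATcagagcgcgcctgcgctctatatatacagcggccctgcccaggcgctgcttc
H1-3: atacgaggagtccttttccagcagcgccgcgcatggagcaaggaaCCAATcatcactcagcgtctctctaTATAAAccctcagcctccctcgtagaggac
H1-4: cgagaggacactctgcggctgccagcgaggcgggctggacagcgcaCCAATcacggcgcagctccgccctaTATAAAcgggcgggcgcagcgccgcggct
In each gene CCAAT begins between 57 and 54 bases before the start. Of the members, 63 matched an entry in the RefSeq promoter table, whose windows hold 250 bases before and 50 bases after the start. Either strand of CCAAT was found in 53 of these 63 windows, against 34.6% of all 35116 promoters, and in 5 of 5 H1 but 3 of 13 H4 genes. The other letters searched were TATAAA, found in 42 of 63 (11.5% of all promoters), the octamer ATTTGCAT in 26 (1.77%) and GGTCCG, the core of the H4 site II element, in 15 (11.3%). The octamer was in 11 of 16 H2A and 14 of 18 H2B windows and in no H1 or H4 window, and GGTCCG was in 12 of 13 H4 windows. These motifs may overlap one another. A match describes these windows and does not show that a factor binds there.

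Among the core histone genes with short models, H2AC14 was also called lower on both substrates and H2AC20 on gel. H2AC14 had 3.07, 12.7 and 20.7 CPM on plastic and 16.3, 5.22 and 3.71 CPM on gel at 100 nM. At 250 nM it had 0.83, 0 and 0.39 CPM on plastic and 0, 0.49 and 0 CPM on gel, below every 100 nM library. It was 27.1-fold lower on plastic (log2 change −4.76, SE 1.03, edgeR adjusted p = 0.0158) and 51.3-fold lower on gel (log2 change −5.68, SE 1.25, edgeR adjusted p = 0.013), and 4 counts in all lay behind the 250 nM values. The plastic call was lost without replicate 2 or 3 of plastic at 250 nM (edgeR adjusted p = 0.091 and 0.0861). Of the stretches of 75 bases in H2AC14, 82.4% also occur in H2AC13, which was given 3.1 counts in all, so reads of this pair cannot be fully assigned. H2AC20 had 0.53, 6.04 and 8.23 CPM on plastic and 12.7, 2.47 and 3.85 CPM on gel at 100 nM, and 0.41, 0, 0, 0, 0.97 and 0 CPM at 250 nM in the same order. It was 20.8-fold lower on gel (log2 change −4.38, SE 1.31, edgeR adjusted p = 0.0411). On plastic its log2 change was −4.87 (SE 1.48, edgeR adjusted p = 0.0575). The gel call was lost in 9 of the 12 fits that leave out a library, all but those without plastic at 100 nM replicate 1 or 3 or gel at 250 nM replicate 2 (edgeR adjusted p from 0.0514 to 0.142). It was also lost with limma-voom, with only the groups compared and with the replicate block (adjusted p = 0.101, 0.0702 and 0.0684), and was made in 13 of 25 settings.

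H2BC21, an H2B gene with a long polyadenylated transcript, went the other way. It had 8.14, 6.81 and 3.96 CPM on plastic and 7.98, 13.1 and 16.5 CPM on gel at 100 nM. At 250 nM it had 12, 18.8 and 20.4 CPM on plastic and 11.9, 31.1 and 19 CPM on gel. The doses did not overlap on plastic and did on gel. H2BC21 rose 2.69-fold on plastic (log2 change 1.43, SE 0.41, edgeR adjusted p = 0.045), and its log2 change on gel was 0.70 (SE 0.39, edgeR adjusted p = 0.238). The plastic call was made in 14 of 25 settings. It was lost with the replicate block (edgeR adjusted p = 0.0525), with limma-trend (adjusted p = 0.0911) and with thinned 100 nM libraries (edgeR adjusted p = 0.0929), and when any 1 of these libraries was dropped: plastic at 100 nM replicates 1 to 3, plastic at 250 nM replicates 2 and 3, gel at 100 nM replicates 2 and 3, and gel at 250 nM replicate 3 (edgeR adjusted p from 0.0518 to 0.187).

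H2BC21 and H2AC20 are neighbours read in opposite directions from 1 stretch of DNA, which makes their contrast visible within a single promoter. The 235 bases between their starts, chr1:149886683-149886917 (GRCh38.p14, plus strand), are printed because H2BC21 reads away to the left and H2AC20 to the right. Capitals mark the 4 motifs searched above, on either strand.
H2BC21 to H2AC20: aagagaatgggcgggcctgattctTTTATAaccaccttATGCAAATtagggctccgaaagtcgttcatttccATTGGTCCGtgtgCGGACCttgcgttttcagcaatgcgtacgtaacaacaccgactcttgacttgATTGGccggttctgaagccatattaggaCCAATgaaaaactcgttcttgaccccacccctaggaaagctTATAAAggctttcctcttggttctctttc
On plastic, H2BC21 was called higher at 250 nM while H2AC20 had 0.14 ± 0.24 CPM there against 4.94 ± 3.97 CPM at 100 nM (SD, n = 3). On gel, H2AC20 was called lower while H2BC21 stood at 20.6 ± 9.70 CPM against 12.5 ± 4.30 CPM (SD, n = 3). The model of H2BC21 in the files is 2224 bases long and that of H2AC20 494 bases. This pair was singled out after its values were seen.

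Another 11 pairs of members had starts on opposite strands within 250 bases of each other. H3C4 and H2AC7 are each paired with H2BC7 over the same 222 bases. H2AC1 and H2BC1 both had 0 counts, and other pairs differed between the sides. H2AC14 had 394 counts over the 12 libraries and its partner H2BC14 had 0. H2AC25 had 305 counts and H2BC26 13, H2BC11 had 155 and H2AC11 7, and H2AC17 had 31 and H2BC17 0. The pairs with over 50 counts on both sides were H2AC6 with H2BC4 (3226 and 252 counts), H2BC8 with H2AC8 (67 and 204 counts) and H2BC21 with H2AC20 (651 and 214 counts). The 244 bases between H2AC14 and H2BC14, chr6:27814778-27815021 (plus strand), are printed with the same capitals for comparison, H2AC14 reading to the left.
H2AC14 to H2BC14: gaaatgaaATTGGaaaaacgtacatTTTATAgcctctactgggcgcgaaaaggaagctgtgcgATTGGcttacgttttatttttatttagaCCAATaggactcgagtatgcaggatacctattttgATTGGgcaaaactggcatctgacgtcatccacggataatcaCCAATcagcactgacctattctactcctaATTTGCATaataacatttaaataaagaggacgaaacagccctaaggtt
Both stretches hold the octamer on 1 strand and several CCAAT boxes. TATAAA lies near both starts in the first and near the H2AC14 start alone in the second.

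The long-model core genes, those with annotated models above 600 bases, were not called lower at the higher dose on either substrate. The length limit was set after values were seen. Of the 10 tested, 2 were called higher on plastic (H2BC21 and H4C15) and none on gel. Of all tested genes, 4.48% were called lower on plastic and 6.9% on gel. Few lower calls would therefore fall among any 10 genes, and their absence does not set these genes apart. With thinned 100 nM libraries neither gene was called higher on plastic, and H4C15 summed with its near copy H4C14 was not called. The 4 tested H1 genes were kept out of this division, whatever the length of their models.

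H2AC6, the most abundant long-model member and a gene known to make polyadenylated messages, varied widely within groups. It had 67.7, 62.4 and 16 CPM on plastic and 52.1, 80.3 and 81.3 CPM on gel at 100 nM. At 250 nM it had 20.3, 71.4 and 69.1 CPM on plastic and 32.4, 71.9 and 63.6 CPM on gel. Replicate 3 of plastic at 100 nM and replicate 1 of each 250 nM group were the low ones, and all groups overlapped. Its log2 change with dose was 0.13 on plastic (SE 0.51, edgeR adjusted p = 0.898) and −0.36 on gel (SE 0.51, edgeR adjusted p = 0.668). H4C8 reached 2.22 to 5.47 CPM on plastic and 3.63 to 11.5 CPM on gel at 100 nM, and 3.72 to 11.7 and 7.60 to 17.3 CPM at 250 nM, with overlap in each comparison. H2BC5 had 12.1, 13.9 and 6.49 CPM on plastic and 10.2, 15.5 and 12.1 CPM on gel at 100 nM. At 250 nM it had 0.41, 8.92 and 11.4 CPM on plastic and 5.62, 10.7 and 16.9 CPM on gel, and replicate 1 was the lowest of its group at 250 nM on both substrates. H2AC25 lay between 3.64 and 8.26 CPM in all libraries, with log2 changes of −0.02 (SE 0.36) and 0.00 (SE 0.34).

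The reads of 2 isoforms of H2BC5 were split by the authors' software, which gives an abundance-weighted length per library. The short model has 486 bases and the long one 789. At 100 nM the mean length was 741, 702 and 557 bases on plastic and 660, 752 and 731 bases on gel. At 250 nM replicates 2 and 3 of both substrates stood at 789, while replicate 1 had 486 bases on plastic (from 1 count) and 683 on gel. H2BC4 was given 659 bases, the full length of its longest model, in all 6 libraries at 250 nM and 536 to 650 bases in the 6 at 100 nM. H4C8 showed no such step, with 709 to 1444 bases at 100 nM and 1059 to 1483 at 250 nM. H2BC5 had 17 to 40 counts in the 250 nM libraries other than plastic replicate 1 against 41 to 113 at 100 nM. H2BC4 had 2 to 14 counts at 250 nM against 18 to 64.5 at 100 nM. The part of depth in the lengths of both genes was not tested.

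**Figure D3:**
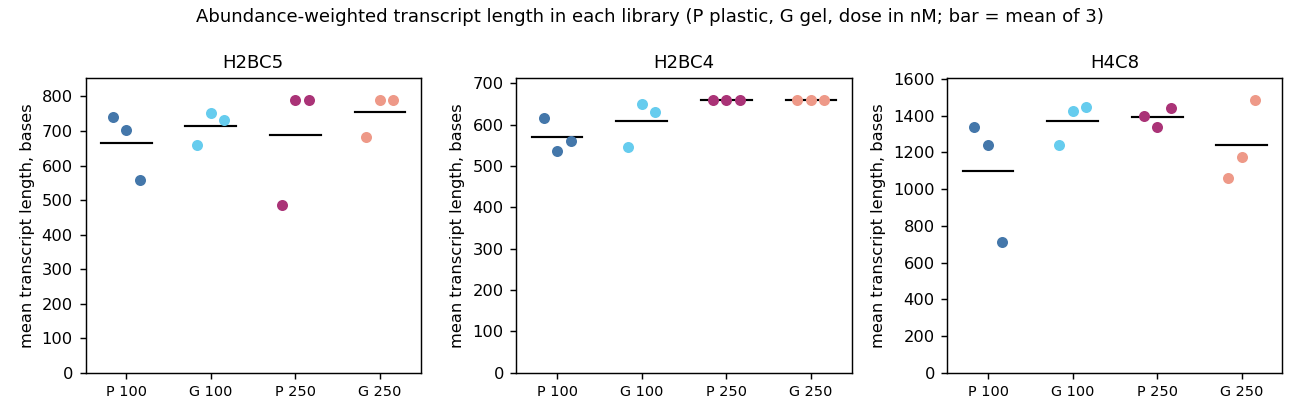
Abundance-weighted transcript length, in bases, of H2BC5, H2BC4 and H4C8 in each library, with the bar at the mean of 3. H2BC4 is at 659 bases in all 6 libraries at 250 nM and at 650 or below at 100 nM, whereas H4C8 overlaps between doses.

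2 calls fell on near-identical copies, whose reads could not be assigned to 1 gene. H2AC18 was listed at 0 in all gel libraries at 100 nM and at 0, 0 and 51.0 CPM on gel at 250 nM, which edgeR called higher (adjusted p = 0.0489). Its copy H2AC19 had the reads instead, with 27.9, 20.8 and 28.8 CPM and 14.5, 61.7 and 0 CPM in these libraries. Every stretch of 75 bases in H2AC18 also occurs in H2AC19, and in each library only 1 of the copies had a count above 0 after rounding. Summed, the pair had 18, 10.4 and 6.33 CPM on plastic and 27.9, 20.8 and 28.8 CPM on gel at 100 nM, then 19, 30.0 and 34.6 CPM and 14.5, 61.7 and 51.0 CPM at 250 nM. The summed pair was not called on gel (log2 change 0.70, edgeR adjusted p = 0.306). H4C15, which shares 97.1% of its stretches with H4C14, was called higher on plastic, with 0.67, 1.55 and 1.42 CPM at 100 nM and 4.14, 9.86 and 7.85 CPM at 250 nM (log2 change 2.57, SE 0.68, edgeR adjusted p = 0.0339). H4C15 and H4C14 summed to 2.22 to 3.60 CPM at 100 nM and 5.79 to 9.86 CPM at 250 nM on plastic. This summed pair was not called on plastic (log2 change 1.33, SE 0.40, edgeR adjusted p = 0.0569) or on gel (log2 change 1.07, SE 0.39, edgeR adjusted p = 0.0806). The H4C15 call was made in 17 of 24 settings. It was lost with limma-trend (adjusted p = 0.0663), with thinned 100 nM libraries (edgeR adjusted p = 0.0506) and without any plastic library at 100 nM or replicate 2 or 3 of plastic at 250 nM (edgeR adjusted p from 0.0685 to 0.154).

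Of the 53 members with reads at 100 nM, 22 were at 0 in all 6 libraries at 250 nM, against 21.6% of all 26745 genes with reads at 100 nM. Of the 34 with at least 10 counts at 100 nM, 8 were, against 2.38% of all 17206 such genes. Of these 8, H1-4 and H4C11 had 195 and 104 counts at 100 nM and the others 11 to 54. The members and all genes were not matched for level, so these shares are a description only. Reads at 250 nM alone were seen for 0 members and for 2042 genes in all. H4C11 had 4.00, 3.87 and 0 CPM on plastic and 5.99, 2.20 and 0 CPM on gel at 100 nM and 0 at 250 nM, but its near copy H4C12 still had reads, and neither comparison called it. Libraries at 250 nM held fewer counts, so a member with few reads at 100 nM could be missed at 250 nM by depth alone. After thinning the 100 nM libraries to the mean total at 250 nM, 6 of 18 tested members were called on each substrate, all of them lower. Of all genes tested after thinning, 8.93% were called on plastic (4.5% lower) and 14.7% on gel (7.11% lower).

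Summed over the 69 members, the histone level was 439, 702 and 695 CPM on plastic and 572, 436 and 363 CPM on gel at 100 nM. It was 178, 228 and 234 CPM on plastic and 144, 283 and 247 CPM on gel at 250 nM. Every 100 nM library lay above every 250 nM library. H4C3 supplied 39.4% to 73.7% of this sum at 100 nM. At 250 nM it supplied 47.4% in replicate 1 of plastic and 5.98% to 10.7% in the other 5 libraries. Without H4C3, the sums were 183 to 259 CPM at 100 nM and 93.5 to 257 CPM at 250 nM, which overlap.

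Between gel and plastic, edgeR called 0 of 21 members at 100 nM, where 0.227% of all tested genes were (0.154% lower and 0.073% higher), and 1 had an unadjusted p under 0.05. DESeq2 called 1, weighted limma-voom 1 and limma-trend 0, and edgeR with no filter on low counts 3. At 250 nM 0 were called (0.00811% of all genes), 4 had an unadjusted p under 0.05, the other 3 tools called 0, and edgeR with no filter called 2. H1-4 and H4C11 had 0 counts in all libraries at 250 nM and could not be called there. H1-3, H1-5, H2AC14 and H2AC20 had only 2 to 4 counts in all at that dose. With only the groups compared, 12 members passed the filter and 0 were called. Of 8 fibroblast markers, 4 were called lower on gel at 100 nM, 1 at 250 nM and 5 over both doses, and their part in the histone values was not tested. Over both doses 0 were called (0.754% of all genes, 0.479% lower and 0.276% higher), 5 had an unadjusted p under 0.05, and DESeq2 called 1, limma-voom 2 and limma-trend 0. H4C3 was lower on gel by 0.91 on the log2 scale at 100 nM (SE 0.47, edgeR adjusted p = 0.548), by 1.31 at 250 nM (SE 0.53, adjusted p = 0.417) and by 1.11 over both doses (SE 0.36, adjusted p = 0.185). The groups overlapped at both doses. At 250 nM plastic replicate 1 had 84.4 CPM, and replicates 2 and 3 (24.4 and 19.6 CPM) lay within the gel range of 12.6 to 25.2 CPM. With 1 library left out, the H4C3 log2 difference ranged from −1.26 to −0.68 at 100 nM and from −1.67 to −0.35 at 250 nM. Over both doses it ranged from −1.29 to −0.64. The change of its gel effect with dose was −0.40 (SE 0.71, edgeR adjusted p = 0.907). Apart from H4C3, H2AC8 had the smallest unadjusted p over both doses among members that share no stretch of 75 bases with another. It had 2.67, 1.86 and 1.74 CPM on plastic and 3.81, 2.89 and 3.71 CPM on gel at 100 nM, then 0.83, 1.88 and 5.11 CPM and 16.5, 5.34 and 5.48 CPM at 250 nM. Gel libraries lay above plastic ones at each dose. Gel and plastic groups did not overlap at both doses for 3.75% of all tested genes, a share not split by direction. The fitted log2 difference of H2AC8 was 1.26 (SE 0.43, edgeR adjusted p = 0.21). H2BC21 had a log2 difference of 0.99 at 100 nM (SE 0.39, edgeR adjusted p = 0.436) and of 0.26 at 250 nM (SE 0.40, edgeR adjusted p = 0.871).

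Within the 6 libraries at 100 nM, H2BC21 was low where H4C3 was high. The library with the most H4C3, replicate 3 of plastic at 512 CPM, had the least H2BC21 at 3.96 CPM, and the one with the least H4C3, replicate 3 of gel at 143 CPM, had the most H2BC21 at 16.5 CPM. The Pearson r was −0.929 (exact permutation p = 0.0125, 0.125 adjusted over 10 relations) and Spearman rho −1 (exact permutation p = 0.00278, 0.0278 adjusted). Without the 2 libraries farthest from the median of H4C3, r was −0.823. H2AC6 showed rho −0.943 (exact permutation p = 0.0167, 0.0833 adjusted) and r −0.715 (exact permutation p = 0.0653, 0.218 adjusted), and r −0.591 without the 2 farthest libraries. H1-2 went the other way, with r 0.832 (exact permutation p = 0.0333, 0.167 adjusted) and 0.414 without the 2 farthest libraries. Its rho was 0.829 (exact permutation p = 0.0583, 0.194 adjusted). H2BC4 and H2BC5 had rho −0.771 and −0.429 (exact permutation p = 0.103 and 0.419, 0.257 and 0.823 adjusted). The 6 libraries mix both substrates, and 3 libraries per substrate are too few for a value within each. The permutations ran over all 6 libraries, whatever the substrate. At 100 nM H4C3 was lower and H2BC21 higher on gel (log2 difference −0.91 and 0.99, neither called). The p-values therefore do not separate a relation between libraries from a shift of both genes between substrates. At 250 nM the H2BC21 relation was not seen, with r −0.222 (exact permutation p = 0.669, 0.744 adjusted) and rho 0.257 (exact permutation p = 0.658, 0.823 adjusted). The 10 relations set H4C3 beside 5 members at each dose and were chosen after seeing values.

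**Figure D4:**
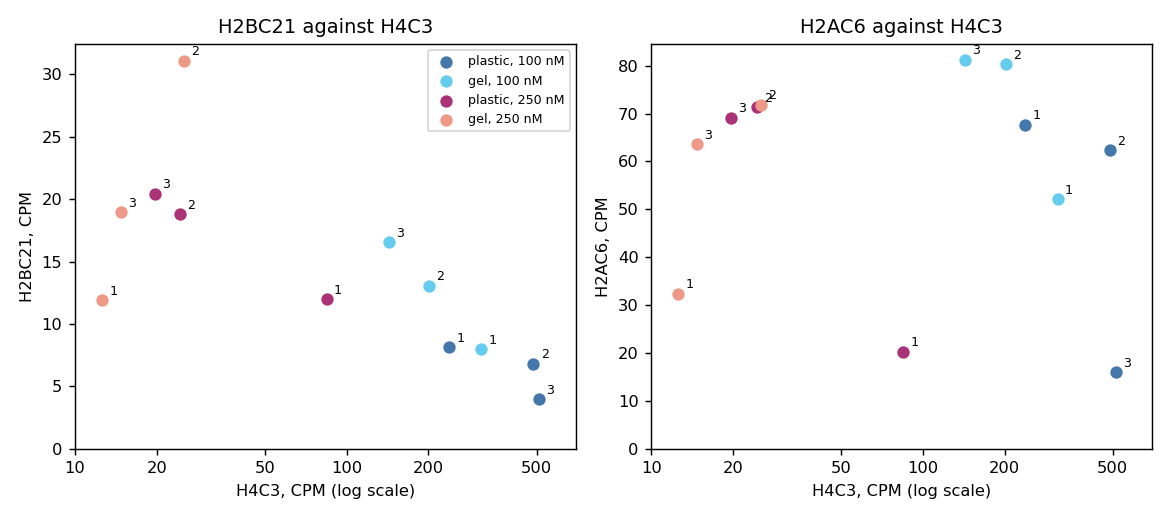
CPM of H2BC21 (left) and H2AC6 (right) against CPM of H4C3 on a log axis, 1 point per library, numbered by replicate and coloured by group. The 6 libraries at 100 nM descend in order for H2BC21, from 16.5 CPM at the lowest H4C3 to 3.96 CPM at the highest, and those at 250 nM do not.

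Genes of the histone pathway outside the clusters were read beside the members, against the 8.52% (plastic) and 13.8% (gel) of all tested genes called with dose. Of 18 tested genes for processing of histone messages, 1 was called lower and 2 higher on plastic, and 0 lower and 1 higher on gel. SLBP, the stem-loop binding protein, fell from 53.4 ± 10.6 to 22.6 ± 3.07 CPM on plastic (SD, n = 3, log2 change −1.24, edgeR adjusted p = 0.00822), and stood at 40.6 ± 6.14 and 33.0 ± 4.88 CPM on gel, where it was not called. LSM10, a subunit of the U7 particle, rose on both substrates, from 13.2 ± 4.62 to 27.2 ± 3.31 CPM on plastic (edgeR adjusted p = 0.0297) and from 14.4 ± 0.86 to 33.3 ± 6.51 CPM on gel (edgeR adjusted p = 0.0118). ZNF473, a U7-associated zinc finger protein, rose on plastic from 1.63 ± 0.25 to 6.11 ± 1.61 CPM (edgeR adjusted p = 0.0322). Of 10 tested genes for histone transcription, 0 were called in either dose comparison by edgeR. NPAT, the coactivator of the clusters, stood at 23.4 ± 2.35 and 21.8 ± 1.65 CPM on plastic. On gel it had 32.7, 24.9 and 24.4 CPM at 100 nM and 4.96, 18.5 and 20.2 CPM at 250 nM. The doses did not overlap on gel, although edgeR did not call the gene. Among 15 tested chaperones, ASF1A, which hands H3 and H4 to assembly factors, fell on plastic (12.7 ± 4.73 to 4.07 ± 1.49 CPM, edgeR adjusted p = 0.0348), and HJURP, the chaperone of CENPA, fell on gel (13.2 ± 5.77 to 2.86 ± 1.82 CPM, edgeR adjusted p = 0.0328).

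The replication-independent variants, which are expressed outside S phase, were compared too. Their median log2 change was −0.59 on plastic, where 9 of 11 were negative, and −0.53 on gel, where 8 of 11 were. Their 11 genes summed to 1227 to 1901 CPM at 100 nM and 1268 to 1890 CPM at 250 nM. On gel MACROH2A1 and MACROH2A2 fell (1.52-fold and 7.48-fold, edgeR adjusted p = 0.0459 and 0.0357) and H2AJ rose 2.39-fold (edgeR adjusted p = 0.0217). H3-3B, the most abundant of them, had 606 ± 75.9 CPM on plastic at 100 nM and 585 ± 144 CPM at 250 nM (SD, n = 3).

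Of 24 DNA replication genes, 2 were called lower on plastic, MCM2 (5.41-fold, edgeR adjusted p = 0.0234) and PCNA (1.68-fold, edgeR adjusted p = 0.0351), both parts of the replication machinery. On gel MCM4 and PRIM1 were called lower (1.78-fold and 13.8-fold, edgeR adjusted p = 0.0317 and 0.0484). Their median log2 change was −0.88 on plastic, with 23 of 24 negative, and −0.53 on gel, with 20 of 24 negative, and their summed CPM was 287 to 619 at 100 nM and 257 to 500 at 250 nM. RNAs that carry no poly(A) tail were measured beside them, because histone messages with a stem-loop end are read in a polyadenylated library only by carry-over. 8 of 16 identifiers on this list could be tested, 1 was called lower on plastic and 2 on gel, and none higher. Their summed CPM was 174, 899 and 711 on plastic and 874, 539 and 550 on gel at 100 nM, and 209, 112 and 156 and then 43.3, 231 and 139 at 250 nM. RNU4ATAC, a spliceosomal small nuclear RNA, supplied most of it at 100 nM and fell 10.0-fold on plastic (edgeR adjusted p = 0.0112) and 12.1-fold on gel (edgeR adjusted p = 0.00697). RN7SL1 overlapped between doses, with 13.3 to 124 CPM at 100 nM and 6.28 to 79.0 CPM at 250 nM. So did RN7SL2, with 12.3 to 52.6 and 0 to 38.4 CPM. Of the 8 tested RNAs, 5 had a negative log2 change on plastic (median −0.48) and 6 on gel (median −1.03). In replicate 1 of plastic at 100 nM the sum of these RNAs was the lowest of its group, as were H4C3, H2AC14 and H1-3. Single genes did not all go that way. SNORD3A and RNU6ATAC, for example, were the highest of their group in that library, and H1-2 and H4C11 were not the lowest. The part of carry-over in the fall of the histone genes was not tested.

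**Figure D5:**
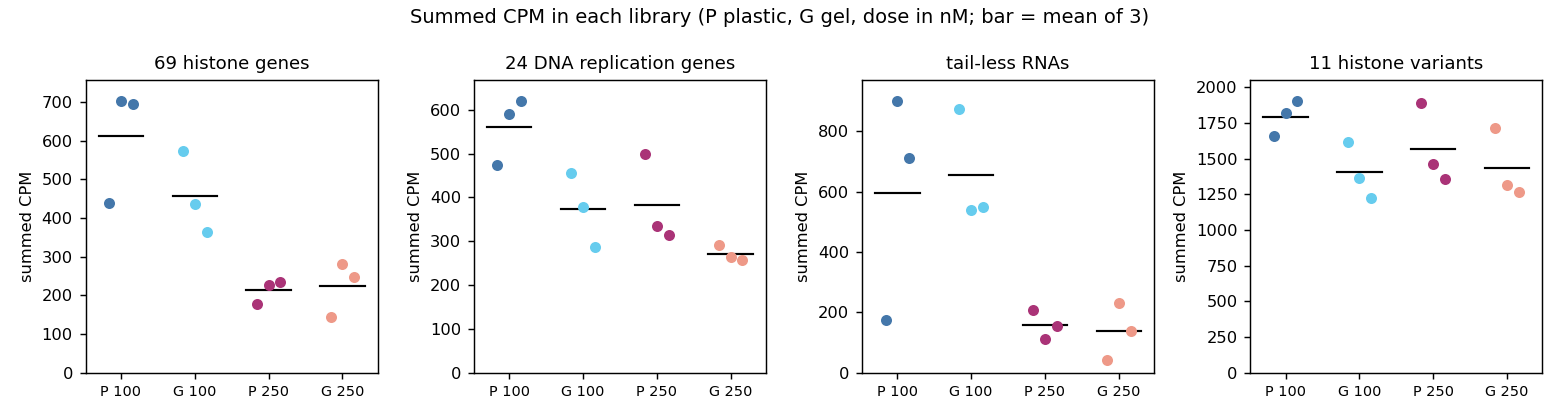
Summed CPM in each library for the 69 histone genes, 24 DNA replication genes, tail-less RNAs and 11 replication-independent variants, with the bar at the mean of 3. The histone sum at 250 nM (144 to 283 CPM) lies below all 100 nM libraries (363 to 702 CPM), the replication genes and the variants overlap between doses, and the tail-less RNAs are lower at 250 nM in all libraries but for overlap with replicate 1 of plastic at 100 nM. RNU4ATAC alone supplied most of the tail-less sum at 100 nM.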

How the data were processed

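Polyadenylated RNA of 12 libraries was analysed. Per the submitters' processing notes, Trimmomatic, STAR, RSEM and DESeq2 1.36.0 were used with GRCh38. No source used here gives the annotation release, the strand setting or any use of molecular identifiers. Per the file headers, each deposited table pairs an RSEM expected count per gene with its TPM, which is scaled for length and library total. Abundance-weighted lengths were deposited in the same tables.

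Expected counts were rounded and tested in edgeR 4.0.16 (R 4.3.3) by quasi-likelihood with TMM scaling and filterByExpr (12329 genes), 1 mean per group and Benjamini-Hochberg adjustment over all tested genes, called under 0.05. CPM use the effective library size. Errors are SDs of 3 libraries or SEs of log2 changes. The fit was tested on simulated data. Limits for 0 use 3 counts per group. Symbols came from the supplied name table (61369 identifiers matched), transcripts from GENCODE 29, positions and promoters from RefSeq GRCh38.p14.

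The members and all lists were chosen with earlier results of these data known. Values per library are given for members with a mean TPM of at least 10 or called in a comparison, with a few more chosen after their values were seen, and up to 4 genes per list, called first and then by mean CPM. Alternatives were other size factors, DESeq2 1.42.0, limma 3.58.1 (voom with sample weights, and trend on log2(TPM + 1)), no filter, fewer groups, a replicate block, no ribosomal DNA or mitochondrial genes, thinning, and leaving out libraries. Some single-gene results are not reported here.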

Additional observations from a re-analysis of the deposited data

How the results depend on the processing

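Counts of called members and genes, the sums and the named members were recomputed under the alternatives. The members called were 1 for gel at 100 nM with DESeq2 and 1 with limma-voom, 3 with no filter; 2 for gel at 250 nM with no filter; and 1, 2 and 3 over both doses with DESeq2, limma-voom and no filter. With no filter, 2 were called for the difference between doses and 12 for dose on plastic. With only the groups compared, 3 were called for dose on gel. Leaving out 1 library at a time gave 0 members in the 4 gel comparisons, 1 to 8 for dose on plastic and 4 to 8 on gel.

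Genes called for gel at 100 nM were 163 with DESeq2, 447 with limma-voom, 335 with no filter, 5 with only the groups compared, 7 with limma-trend, 57 without the 2 libraries apart and 3 to 100 with 1 library left out. For gel at 250 nM they were 2 with upper-quartile factors, 97, 161, 231 and 0 under the first 4 of those settings, 2 with the replicate block, 3 with limma-trend, 7 without the 2 libraries apart and 1 to 2 with 1 left out. Over both doses they were 385, 801 and 573 with DESeq2, limma-voom and no filter, 53 with limma-trend, 201 without the 2 libraries apart and 37 to 237 with 1 left out. The difference gave 129 with no filter and 0 with 1 left out. Dose on plastic gave 1667, 3173, 1655 and 2101 with DESeq2, limma-voom, only the groups compared and without the 2 libraries apart, and 95 to 2202 with 1 left out. Dose on gel gave 2925 with limma-voom, 525 with only the groups compared and 676 to 1843 with 1 left out. The cause of these shifts was not tested. A fit on only the groups compared is the same as the reported one for the gel effect over both doses and for the difference, and was not run there.

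The sum of all members, as a log2 change without a test, was −2.34 for dose on plastic and −1.76 on gel in TPM. For gel at 250 nM it turned negative in TPM (−0.14), without gel replicate 2 (−0.13) and without plastic replicate 1 (−0.04). With 1 library left out it ranged from −0.61 to −0.28 for gel at 100 nM, −0.13 to 0.31 at 250 nM, −1.71 to −1.41 for dose on plastic and −1.23 to −0.79 on gel. The H4C3 gel effect differed between doses by 0.72 with limma-voom, 0.043 without the 2 libraries apart and 0.57 without plastic at 250 nM replicate 1, all of the opposite sign to the reported value, and ranged from −0.74 to 0.57 with 1 library left out. H4C3 was called lower on gel with no filter (adjusted p = 0.0209 at 100 nM, 0.00105 at 250 nM) and with limma-voom at 100 nM (0.0293), and over both doses with either (8.8e-07 and 0.0494).

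Same-numbered libraries had correlations of their deviations between −0.24 and 0.14 over 12 pairs, 4 of them above 0.1, so the numbers were not taken to pair libraries. With the replicate block, 7 members were called for dose on plastic, 6 on gel and 0 in the gel comparisons.

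Over all alternatives, the values of named members kept their direction and side of the threshold 374 times, lost their call 65 times, gained one 5 times and turned their sign 3 times. The depth at 250 nM limits what can be said of members with few counts.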
